A study of Mus musculus with 9 samples.

Results

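Osteopontin, the thrombospondins, tenascin C, fibronectin and periostin are secreted proteins that tell cells what the surrounding matrix is like, and integrins and CD44 are the surface receptors that read them. The 10 genes described here are 6 secreted proteins (Spp1, Thbs1, Thbs2, Tnc, Fn1 and Postn) and 4 receptor chains (Cd44, Itgav, Itgb3 and Itga5), out of 54532 genes measured. They were found by gene name, and the set was chosen on group differences seen in these same libraries, in all 3 comparisons. Their values are therefore given as a description, with no p-value.

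Mice of the C57BL/6 strain gave flat mounts of choroid and retina, whose RNA was sequenced in 3 groups of 3 libraries. The first group was untreated. The second was labelled CNV (choroidal neovascularisation, growth of vessels from the choroid), with titles that name wet AMD, the form of age-related macular degeneration with such vessels. The third, BetP-Gel@Ran, was sampled 3 months after a gel called BetP-Gel had been injected into the vitreous. The series concerns this gel as an aid to ranibizumab, an antibody fragment against vascular endothelial growth factor A. The treatment label of the third group names the gel without the drug, and the labels do not say whether these mice also had CNV. How CNV was brought about, the ages of the mice and the sampling time of the other groups are not stated in the sources used here, so time and treatment cannot be told apart. Whether each library stands for its own animal is not stated, and p-values then speak only of variation among these samples, part of which could be technical.

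In an injured tissue, osteopontin is made by activated macrophages among other cells, and binds CD44 and integrins that contain the alpha-v chain. Thrombospondin 1 is released by platelets and made by macrophages and retinal pigment epithelium, and is known as an inhibitor of vessel growth and an activator of latent TGF-beta. Fibronectin is the main ligand of the integrin of alpha-5 and beta-1 chains, while the pair of alpha-v and beta-3 binds osteopontin, vitronectin and fibronectin on sprouting endothelium and on platelets.

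Values are FPKM, a level per length of gene, so that levels of different genes can be set side by side. Recovered reads per library were 16990118 to 18753737. Markers of other tissues differed between the groups as well. Rod markers summed to 2254 to 3316 FPKM in untreated, 840 to 1007 FPKM in CNV and 1130 to 1580 FPKM in BetP-Gel@Ran, and 5 of 6 were lower in CNV than in untreated by limma. Markers of corneal and surface epithelium, which the label does not name, summed to 17884 to 20796, 8565 to 10459 and 12842 to 15918 FPKM, with 5 of 6 lower in CNV than in untreated and 1 higher. Pigment epithelium markers summed to 644 to 1083 FPKM over all libraries. Endothelial markers were low in all groups, summing to 8.43 to 12.3 FPKM. Lens markers stood at 391, 307 and 8513 FPKM in untreated 1 to 3, at 5.21 to 80.6 FPKM in CNV and at 836 to 3417 FPKM in BetP-Gel@Ran. Of the 6, 3 were lower in CNV than in untreated and 4 higher in BetP-Gel@Ran than in CNV. The part of these tissues in the values of the 10 genes was not tested.

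Spp1 (ENSMUSG00000029304, chromosome 5, 104435118 to 104441050, plus strand, mm10) encodes osteopontin. Its upstream sequence is shown with those of Tnc and Postn, because Spp1 and Tnc were both higher in CNV than in the other groups and Postn was not. Each is the 250 bases before the start that lay nearest to the deposited start of the gene, from RefSeq on GRCm38.p6, written 5′ to 3′ on the strand of the gene. The windows are chr5:104434861-104435110 (plus) for Spp1, chr4:64047016-64047265 (minus) for Tnc and chr3:54360857-54361106 (plus) for Postn. Capitals mark the TATA box letters TATAAA and, in Spp1 alone, the RUNX letters AACCACA and the ETS letters AGGAAGT.
Spp1: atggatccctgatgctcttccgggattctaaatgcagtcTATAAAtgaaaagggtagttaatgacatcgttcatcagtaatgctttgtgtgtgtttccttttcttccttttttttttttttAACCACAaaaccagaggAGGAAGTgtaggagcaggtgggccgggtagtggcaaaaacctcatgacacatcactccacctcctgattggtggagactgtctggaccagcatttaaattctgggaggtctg
Tnc: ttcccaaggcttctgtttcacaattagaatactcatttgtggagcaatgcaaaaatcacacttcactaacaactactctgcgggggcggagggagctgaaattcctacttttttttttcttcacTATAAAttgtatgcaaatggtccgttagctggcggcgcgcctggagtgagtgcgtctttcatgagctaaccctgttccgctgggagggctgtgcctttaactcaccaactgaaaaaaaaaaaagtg
Postn: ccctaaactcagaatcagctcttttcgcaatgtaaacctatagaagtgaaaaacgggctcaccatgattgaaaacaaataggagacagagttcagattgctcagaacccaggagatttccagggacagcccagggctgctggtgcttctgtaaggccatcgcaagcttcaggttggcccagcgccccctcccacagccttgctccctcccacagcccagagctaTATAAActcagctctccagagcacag
Counted from the start, with -1 as the base before it, TATAAA began at position -26 in Postn, -126 in Tnc and -211 in Spp1. The RUNX and ETS letters in Spp1 began at -129 and -112. The set of RefSeq windows used here held 10 windows of 300 bases for 7 of the 10 genes, with none for Thbs1, Fn1 and Itgb3. On either strand, TATAAA was in 5 of the 10 windows and in 13.6% of all 32851 windows in the table. The 2 windows of Tnc overlap and hold the same TATAAA, so the 5 windows hold 4 sites in 4 genes. The site in Thbs2 was on the other strand, at -126, and of the 4 that of Postn lay nearest to the start. AACCACA was in 1 window and AGGAAGT in 2, against 5.27% and 9.35% of all. These RUNX and ETS letters were chosen after the Spp1 window had been read. Their presence there was known beforehand, so the shares test nothing for Spp1. The AP-1 letters TGACTCA (5.2% of all) and the TEAD letters GGAATG (14.7%) were in 0 of the 10. No motif searched overlapped another in the printed windows.

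Spp1 was the most abundant of the 10 genes in CNV. It stood at 24.3, 22.6 and 19.9 FPKM in untreated 1 to 3, at 496, 685 and 346 FPKM in CNV 1 to 3, and at 21.1, 37.9 and 76.4 FPKM in BetP-Gel@Ran 1 to 3. All 3 CNV libraries lay above every other library, while BetP-Gel@Ran 1 fell inside the untreated range. Mean FPKM was 22.3 ± 2.21 (SD, n = 3) for untreated, 509 ± 170.2 for CNV and 45.1 ± 28.3 for BetP-Gel@Ran, so CNV was 22.9-fold above untreated and 11.3-fold above BetP-Gel@Ran. On the log2(FPKM + 1) scale the difference was 4.40 ± 0.41 (SE) for CNV against untreated, -3.60 ± 0.41 for BetP-Gel@Ran against CNV and 0.80 ± 0.41 for BetP-Gel@Ran against untreated. Among all 54532 genes Spp1 ranked 93 to 170 in CNV, 713 to 2509 in BetP-Gel@Ran and 2362 to 2740 in untreated. Fewer cells of a type and less RNA per cell cannot be told apart in such bulk libraries.

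Thbs1 (ENSMUSG00000040152, chromosome 2, 118111876 to 118127133, plus strand), the gene of thrombospondin 1, had the same order of groups at lower levels. It stood at 7.49, 7.55 and 7.55 FPKM in untreated, at 49.1, 67.4 and 34.0 FPKM in CNV and at 7.22, 13.1 and 13.8 FPKM in BetP-Gel@Ran. CNV did not overlap with either group, and BetP-Gel@Ran 1 lay just under the untreated libraries. CNV was 6.67-fold above untreated and 4.41-fold above BetP-Gel@Ran in mean FPKM, with log2 differences of 2.53 ± 0.27 for CNV against untreated and -2.04 ± 0.27 for BetP-Gel@Ran against CNV. Within CNV the ratio of Spp1 to Thbs1 FPKM was 10.1, 10.2 and 10.2, although both genes varied among these libraries. It was 2.64 to 3.25 in untreated and 2.90 to 5.52 in BetP-Gel@Ran.

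Thbs2 (ENSMUSG00000023885, chromosome 17, 14665500 to 14694235, minus strand) encodes the related thrombospondin 2. It stood at 7.42, 5.56 and 6.33 FPKM in untreated, 6.54, 4.26 and 4.83 FPKM in CNV and 6.14, 5.56 and 6.07 FPKM in BetP-Gel@Ran. The 3 groups overlapped, and no difference passed the threshold (-0.27 ± 0.14 for CNV against untreated). It passed in CNV against untreated without CNV 1 (-0.42). The ratio of Thbs1 to Thbs2 was 1.01 to 1.36 in untreated, 7.04 to 15.8 in CNV and 1.17 to 2.35 in BetP-Gel@Ran.

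Tnc (ENSMUSG00000028364, chromosome 4, 63959785 to 64047015, minus strand) encodes tenascin C, a protein of wounds and developing tissue. It stood at 1.12, 0.993 and 0.789 FPKM in untreated, 5.31, 3.94 and 1.77 FPKM in CNV and 0.690, 0.713 and 0.848 FPKM in BetP-Gel@Ran. Every CNV library lay above every other one, and CNV 3 was the lowest of them. CNV was 3.80-fold above untreated and 4.90-fold above BetP-Gel@Ran in mean FPKM, with log2 differences of 1.17 ± 0.25 and, for BetP-Gel@Ran against CNV, -1.34 ± 0.25. The added pseudocount shrinks differences at these levels: with 0.1 in place of 1 they were 1.70 and -2.02. Tnc reached 1 FPKM in 4 libraries, the 3 of CNV and untreated 1.

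Fn1 (ENSMUSG00000026193, chromosome 1, 71585520 to 71653200, minus strand), the gene of fibronectin, had a smaller range. It stood at 6.06, 5.87 and 4.34 FPKM in untreated, 11.8, 12.7 and 8.65 FPKM in CNV and 7.67, 7.48 and 8.86 FPKM in BetP-Gel@Ran. Untreated lay below both other groups, and BetP-Gel@Ran 3 lay above CNV 3. The log2 difference was 0.90 ± 0.15 for CNV against untreated, -0.41 ± 0.15 for BetP-Gel@Ran against CNV and 0.49 ± 0.15 for BetP-Gel@Ran against untreated.

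Postn (ENSMUSG00000027750, chromosome 3, 54361109 to 54391037, plus strand) encodes periostin, a fibroblast product that binds alpha-v integrins. It stood at 17.4, 19.3 and 16.0 FPKM in untreated, 19.5, 11.7 and 8.41 FPKM in CNV and 20.2, 17.1 and 22.5 FPKM in BetP-Gel@Ran. CNV 2 and CNV 3 lay below all other libraries, and CNV 1 lay among them. The difference was -0.46 ± 0.24 for CNV against untreated and 0.63 ± 0.24 for BetP-Gel@Ran against CNV, neither past the threshold. Without CNV 1 both passed it, at -0.76 and 0.93. Fibroblast markers summed to 278 to 310 FPKM in untreated, 106 to 182 FPKM in CNV and 115 to 154 FPKM in BetP-Gel@Ran. Col1a1 (means of 122.5, 34.3 and 40.6 FPKM) and Col1a2 (93.5, 27.7 and 35.4 FPKM) carried the fall. In CNV the means of Col3a1 (61.7 to 63.1 FPKM) and Pdgfra (4.11 to 4.40 FPKM) were slightly higher than in untreated, and those of Col6a3 and Col5a1 slightly lower. Of the 6 markers, 2 were lower in CNV than in untreated by limma. The part of fibroblasts in these values was not tested.

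**Figure D1:**
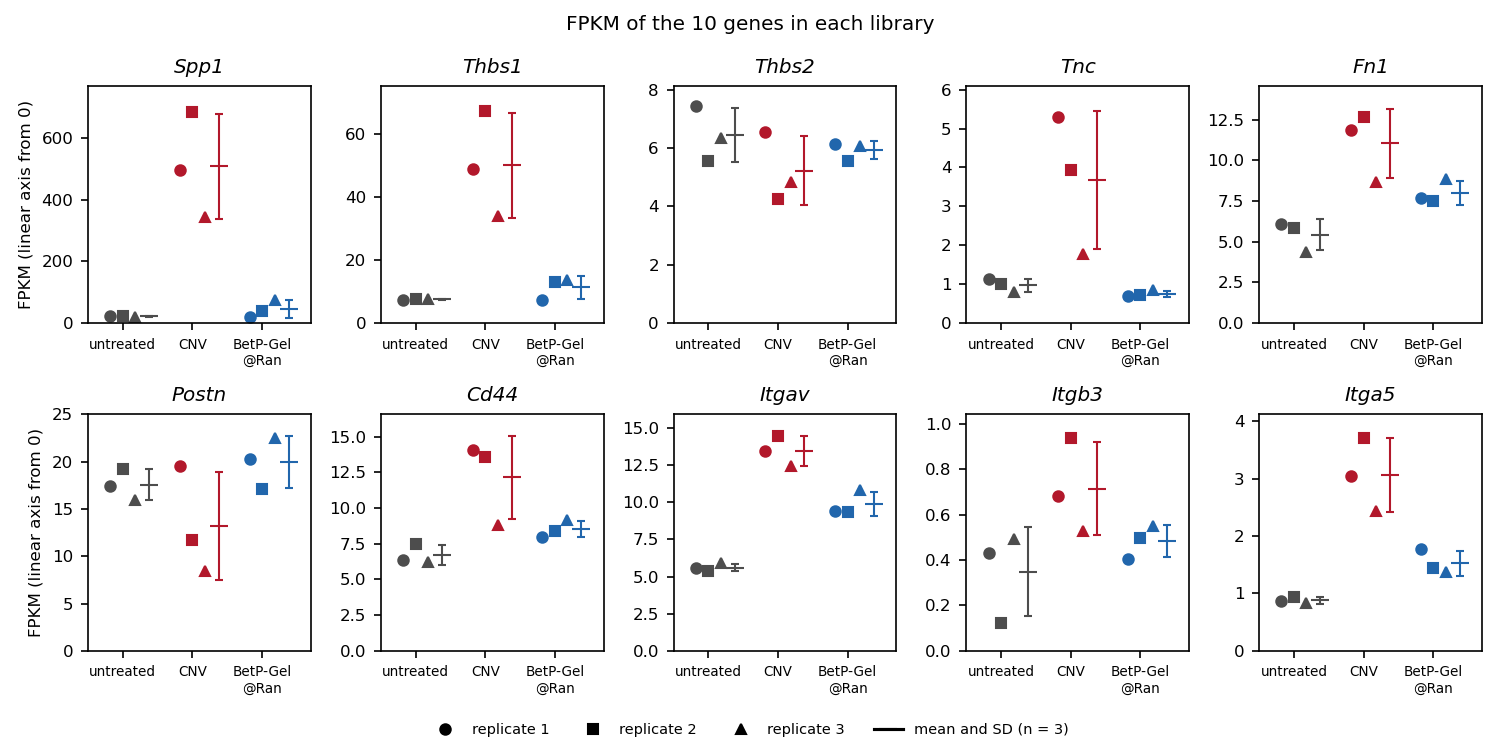
FPKM of the 10 genes in each library, 1 panel per gene on its own linear axis from 0. Points are libraries by replicate number, and bars are the mean and SD of 3 libraries. In Spp1 the CNV libraries sit at 346 to 685 FPKM and all others at or under 76.4 FPKM, while the groups of Thbs2 and Postn overlap.

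Cd44 (ENSMUSG00000005087, chromosome 2, 102811141 to 102901665, minus strand) encodes the receptor for hyaluronan that also binds osteopontin. It stood at 6.38, 7.50 and 6.23 FPKM in untreated, 14.1, 13.6 and 8.80 FPKM in CNV and 7.99, 8.41 and 9.14 FPKM in BetP-Gel@Ran. Untreated lay below both other groups, and BetP-Gel@Ran 3 lay above CNV 3. CNV was 1.81-fold above untreated in mean FPKM, a log2 difference of 0.75 ± 0.15. The ratio of Spp1 to Cd44 FPKM was 3.01 to 3.81 in untreated, 35.3 to 50.4 in CNV and 2.64 to 8.36 in BetP-Gel@Ran.

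Itgav (ENSMUSG00000027087, chromosome 2, 83724397 to 83806916, plus strand), the alpha-v chain, separated all 3 groups. It stood at 5.55, 5.40 and 5.88 FPKM in untreated, 13.5, 14.5 and 12.4 FPKM in CNV and 9.44, 9.38 and 10.8 FPKM in BetP-Gel@Ran. The groups did not overlap, with BetP-Gel@Ran between the other two. The log2 difference was 1.13 ± 0.08 for CNV against untreated, -0.41 ± 0.08 for BetP-Gel@Ran against CNV and 0.72 ± 0.08 for BetP-Gel@Ran against untreated.

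Itga5 (ENSMUSG00000000555, chromosome 15, 103344286 to 103366763, minus strand), the alpha-5 chain of the fibronectin receptor, had the same order. It stood at 0.872, 0.936 and 0.829 FPKM in untreated, 3.05, 3.72 and 2.43 FPKM in CNV and 1.77, 1.44 and 1.37 FPKM in BetP-Gel@Ran. The groups did not overlap here either. CNV was 3.49-fold above untreated and 2.01-fold above BetP-Gel@Ran in mean FPKM, with log2 differences of 1.10 ± 0.12 and, for BetP-Gel@Ran against CNV, -0.68 ± 0.12. BetP-Gel@Ran was above untreated by 0.42 ± 0.12. Itga5 reached 1 FPKM in 6 libraries, those of CNV and BetP-Gel@Ran.

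Itgb3 (ENSMUSG00000020689, chromosome 11, 104608000 to 104670476, plus strand), the beta-3 chain that pairs with alpha-v, was under 1 FPKM in all 9 libraries and was not tested. It stood at 0.429, 0.124 and 0.493 FPKM in untreated, 0.684, 0.937 and 0.527 FPKM in CNV and 0.406, 0.498 and 0.549 FPKM in BetP-Gel@Ran. CNV lay above untreated without overlap, and BetP-Gel@Ran 3 lay above CNV 3. These values rest on 13 to 97 reads per library.

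In CNV against untreated, 7 of the 9 tested genes were past the adjusted threshold of 0.05 and higher (Spp1, Thbs1, Tnc, Fn1, Cd44, Itgav and Itga5) and 0 were lower. Of all 14086 genes tested, 22.5% were higher and 22.1% lower. In BetP-Gel@Ran against CNV, 5 of the 9 were lower (Spp1, Thbs1, Tnc, Itgav and Itga5) and 0 higher, against 8.27% and 5.81% of all genes. In BetP-Gel@Ran against untreated, 3 were higher (Fn1, Itgav and Itga5) and 0 lower, against 16.1% and 18.1% of all genes. Since these contrasts chose the set, and Tnc passed the filter mainly through CNV, the counts support nothing beyond the values. The median difference of the 9 genes was 1.10, -0.44 and 0.42 in the 3 comparisons, beside 0.01, 0.00 and -0.01 for all genes. The comparisons share libraries, so they are not independent of each other. With FPKM divided by its sum in each library, genes called in BetP-Gel@Ran against untreated were higher in 63.2% of cases, against 47.1% with the deposited scaling.

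Some of these calls changed when 1 library was left out, in part with a difference that hardly moved. Of those between BetP-Gel@Ran and CNV, Tnc did not pass without CNV 1 (-1.08), CNV 2 (-1.26) or BetP-Gel@Ran 2 (-1.32), Itgav did not without CNV 1 (-0.41), CNV 2 (-0.36) or BetP-Gel@Ran 2 (-0.38), and Itga5 did not without CNV 1 (-0.68). Without CNV 3, Fn1 (-0.56) and Cd44 (-0.64) passed. In BetP-Gel@Ran against untreated, Spp1 (1.24) and Thbs1 (0.76) passed without BetP-Gel@Ran 1, and without BetP-Gel@Ran 3 their differences were 0.34 and 0.33. Fn1 there did not pass without untreated 3 (0.37) or without any 1 of the BetP-Gel@Ran libraries (0.43 to 0.54), and Itga5 did not without untreated 1 (0.42), untreated 3 (0.41) or BetP-Gel@Ran 1 (0.36). With no filter, neither passed. Cd44 there passed without CNV 3 and in a fit of only 2 groups (0.31 in both).

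**Figure D2:**
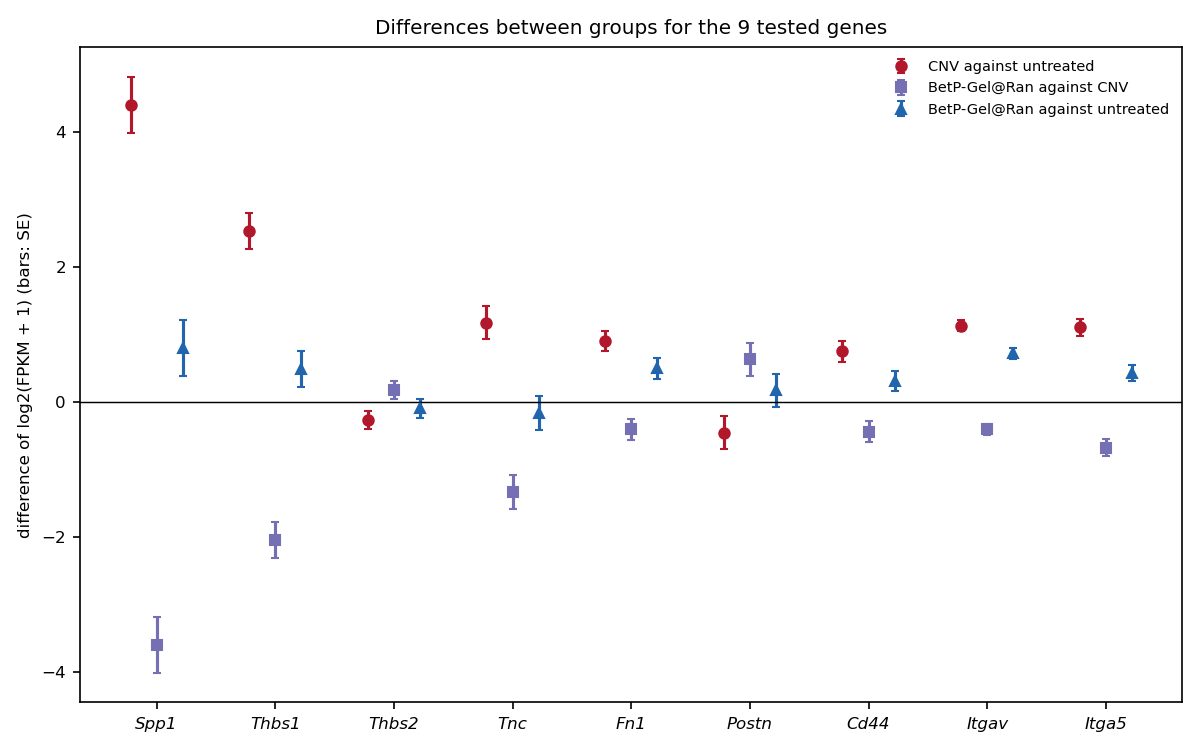
Difference of log2(FPKM + 1) between groups for the 9 tested genes, with SE bars from the limma fit of 9 libraries. Spp1 lies at 4.40 and -3.60 in the comparisons with CNV, and Thbs2 lies within 0.27 of 0 in all 3.

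The order of the 10 genes by level changed with the group. In untreated it ran from Spp1 (22.3 FPKM) and Postn (17.6 FPKM) through Thbs1 (7.53), Cd44 (6.70), Thbs2 (6.44), Itgav (5.61) and Fn1 (5.43 FPKM) to Tnc (0.968), Itga5 (0.879) and Itgb3 (0.349 FPKM). Each neighbour from Thbs1 to Fn1 overlapped with the next between libraries, as did Tnc with Itga5, while Spp1 and Postn did not overlap. In CNV the order was Spp1 (509 FPKM), Thbs1 (50.2), Itgav (13.4), Postn (13.2), Cd44 (12.1), Fn1 (11.1), Thbs2 (5.21), Tnc (3.67), Itga5 (3.07) and Itgb3 (0.716 FPKM), with overlap between neighbours from Itgav to Fn1 and from Thbs2 to Itga5. In BetP-Gel@Ran it was Spp1 (45.1 FPKM), Postn (19.9), Thbs1 (11.4), Itgav (9.88), Cd44 (8.52), Fn1 (8.0), Thbs2 (5.93), Itga5 (1.53), Tnc (0.750) and Itgb3 (0.484 FPKM), where Spp1 overlapped with Postn, Thbs1 with Itgav and Cd44 with Fn1. Overlap here compares ranges over the libraries of a group, and some overlapping pairs kept their order within every library. Within untreated, Thbs1 was above Cd44 and Thbs2 above Itgav in each library. Within CNV, Cd44 was above Fn1 and Thbs2 above Tnc, and within BetP-Gel@Ran, Spp1 was above Postn and Cd44 above Fn1. The other overlapping pairs changed order between libraries. Spp1 made up 29.2% to 31.5% of the summed FPKM of the 10 genes in untreated, 80.05% to 83.8% in CNV and 25.5% to 50.8% in BetP-Gel@Ran.

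The CNV libraries also differed among themselves. CNV 2 was the highest and CNV 3 the lowest for Spp1, Thbs1, Fn1, Itgav, Itga5 and Itgb3, while CNV 1 was the highest for Tnc, Cd44, Thbs2 and Postn. Neutrophil markers summed to 446, 779.5 and 325 FPKM in CNV 1 to 3, carried by S100a8 and S100a9, and macrophage and microglia markers to 1447, 1634 and 1133 FPKM. Lyz2 alone made up 1224, 1333 and 915 FPKM of the latter, and only Lyz2 and Adgre1 among the macrophage markers were highest in CNV 2 and lowest in CNV 3. In untreated the macrophage sum was 278 to 334 FPKM and in BetP-Gel@Ran 640 to 761 FPKM. The neutrophil sum was 23.6 to 37.5 FPKM in untreated, and 15.3, 15.6 and 124.2 FPKM in BetP-Gel@Ran 1 to 3, of which the third was also the highest in Spp1 of its group. These sums were mostly S100a8 and S100a9, and other markers differed from them. Retnlg was 2.60, 2.80 and 1.29 FPKM in BetP-Gel@Ran 1 to 3, lowest in the third, and Csf3r was 0.933, 0.998 and 1.57 FPKM. Both lay above every untreated library, which reached at most 0.570 and 0.446 FPKM. Of 12 macrophage markers, 11 were higher in CNV than in untreated by limma, 6 were lower in BetP-Gel@Ran than in CNV and 9 were higher in BetP-Gel@Ran than in untreated. All 5 tested neutrophil markers were higher in CNV than in untreated and lower in BetP-Gel@Ran than in CNV. Of these, Cxcr2 reached 1 FPKM only in the 3 CNV libraries, and Csf3r only in those and BetP-Gel@Ran 3. Both were thus tested only because they were high in CNV, which partly fixed this count, and Mmp8 and Ngp failed the filter. Platelet markers summed to 25.4 to 27.1, 73.5 to 182 and 39.7 to 50.01 FPKM in the 3 groups, carried by Pf4, with Gp1bb at 0 in every library. Only 2 of the 8 were tested, of which 1 was higher in CNV than in untreated. Red blood cell markers summed to 3508 to 5451, 6421 to 19406 and 3406 to 11700.0 FPKM. The part of these cells in the values of the 10 genes was not tested.

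The genes with the profiles nearest to the widest-ranging members were found over all 9 libraries, as the smallest mean absolute difference of centred log2(FPKM + 1) values. For Spp1 they were Il1b (0.26), the gene of interleukin 1 beta, Clec4d (0.30), a lectin receptor of myeloid cells, and Ltf (0.36), the gene of lactoferrin. For Thbs1 they were Srgn (0.14), the proteoglycan serglycin of granules, Ccr1 (0.19), a chemokine receptor, and Socs3 (0.19), an inhibitor of cytokine signalling. For Tnc they were Aldh1a3 (0.11), an enzyme of retinoic acid synthesis, Acsbg1 (0.15), an acyl-CoA synthetase, and Fhl2 (0.15), a LIM-domain protein. No gene was on more than 1 of these 3 lists. The added 1 shrinks differences at low levels, so a near gene need not share the fold change. From untreated to CNV, mean FPKM went from 0.442 to 27.1 for Il1b and from 22.3 to 509 for Spp1. For Aldh1a3 it went from 36.1 to 86.9 FPKM, and for Tnc from 0.968 to 3.67 FPKM. Nearest genes under another pseudocount were not sought.

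Of the integrin chains that can pair with Itgav, Itgb3 or Itga5, Itgb1 and Itgb8 rose in CNV against untreated. Itgb1, the partner of alpha-5 and many other chains, stood at 31.2, 39.2 and 34.9 FPKM in untreated, 75.6, 72.7 and 46.8 FPKM in CNV and 32.7, 40.0 and 36.9 FPKM in BetP-Gel@Ran. It was higher in CNV than in untreated (0.85 ± 0.17, adjusted p = 0.00381 by limma) and lower in BetP-Gel@Ran than in CNV (-0.79 ± 0.17, adjusted p = 0.0225), with no overlap in either. The second call was lost without CNV 1 (0.0843), CNV 2 (0.0871) or any BetP-Gel@Ran library (0.0578 to 0.0634), and with no filter (0.0560). Itgb8, a partner of alpha-v that activates latent TGF-beta, was 4.51 ± 2.0, 11.1 ± 2.13 and 6.78 ± 1.5 FPKM (SD, n = 3) in the untreated, CNV and gel groups, and rose in CNV against untreated (1.18 ± 0.25, adjusted p = 0.00461 by limma). Its difference of -0.64 ± 0.25 in BetP-Gel@Ran against CNV did not pass (adjusted p = 0.112). Itgb5, another partner of alpha-v, was 25.6 ± 1.15, 25.5 ± 2.74 and 21.4 ± 0.941 FPKM, with a difference of -0.01 ± 0.08 (adjusted p = 0.912 by limma) in CNV against untreated. BetP-Gel@Ran lay below every other library, by -0.23 ± 0.08 against CNV (adjusted p = 0.0923) and -0.25 ± 0.08 against untreated (adjusted p = 0.0485). The latter call was lost without any 1 of the untreated or BetP-Gel@Ran libraries (0.0641 to 0.134), with no filter (0.0949), with the replicate block (0.0829) and with either rescaling (0.166 quantile, 0.165 FPKM sum). At 30.5-fold or more above Itgb3 in every library, Itgb5 was the most abundant of the alpha-v partners other than Itgb1. Itga2b, the platelet partner of beta-3, was 1.58, 1.96 and 1.93 FPKM, with a difference of 0.20 ± 0.13 (adjusted p = 0.229). Itgb6 stayed near 1 FPKM (0.903, 0.967 and 0.962 FPKM) and was not tested.

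**Figure D3:**
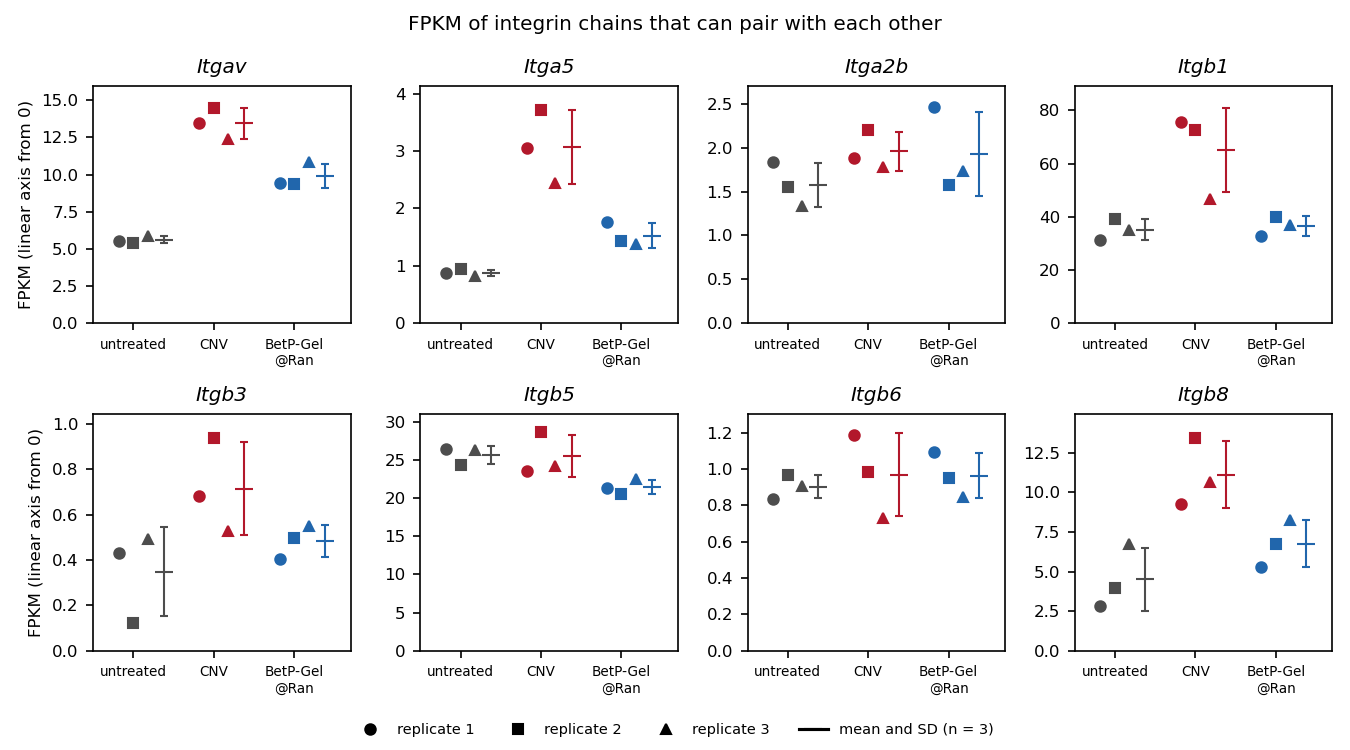
FPKM of 8 integrin chains that can pair with each other, 1 panel per gene on its own linear axis from 0, with libraries as points and the mean and SD of 3 libraries as bars. Itgav, Itga5 and Itgb1 are higher in all CNV libraries than in untreated ones, and for Itgb5 untreated and CNV overlap while BetP-Gel@Ran lies below both.

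Around the 10 genes, 128 others of the pathway were listed by function and 106 of them passed the filter. The lists were drawn up with earlier results of these data known. Their counts and p-values, also those of the integrin chains above, are thus a description and no independent evidence on the pathway. Genes named below are those with the smallest adjusted p of each list. In CNV against untreated, 44 of the 106 rose (41.5%) and 24 fell (22.6%), by limma with Benjamini-Hochberg adjustment over all 14086 genes. Some of the 106, among them Mmp12, Plaur, Parvg and Vcan, passed the filter only through CNV, so the filter itself favours genes that are high there. Between BetP-Gel@Ran and CNV, 11 rose (10.4%) and 28 fell (26.4%), and between BetP-Gel@Ran and untreated 24 rose (22.6%) and 14 fell (13.2%). The shares over all genes are those given with the counts of the 10 genes. Without CNV 1, those between BetP-Gel@Ran and CNV were 0 and 9. Every named difference below that passed had no overlap between its groups.

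Among the other matrix proteins, 14 of 27 fell and 6 rose in CNV against untreated, with a median difference of -0.50. Sparc, which encodes the collagen-binding protein osteonectin, fell from 1219 to 253 FPKM (-2.26 ± 0.13, adjusted p = 8.06e-06 by limma). Thbs4, a thrombospondin of muscle and tendon, fell from 39.6 to 15.0 FPKM (-1.34 ± 0.10, adjusted p = 1.76e-05), and Vtn, the alpha-v ligand vitronectin, from 105.8 to 51.8 FPKM (-1.01 ± 0.13, adjusted p = 2.87e-04). Of the 27, 10 were lower in BetP-Gel@Ran than in untreated (37.0%) and 1 higher (3.70%), against 18.1% and 16.1% of all genes. Means of Sparc, Thbs4 and Vtn in BetP-Gel@Ran were 351, 20.3 and 58.2 FPKM. Skeletal muscle markers, 6 of 6 lower than in untreated in both other groups, summed to 3536 to 3943 FPKM in untreated and 546 to 918 FPKM in CNV. They summed to 750 to 902 FPKM in BetP-Gel@Ran, and their part in Thbs4 and Sparc was not tested. Ecm1, extracellular matrix protein 1, rose from 63.9 FPKM in untreated to 159.7 FPKM in CNV (1.31 ± 0.12, adjusted p = 4.69e-05 by limma). It stood at 65.7 FPKM in BetP-Gel@Ran, lower than CNV (-1.27 ± 0.12, adjusted p = 9.78e-04). Fbln2, fibulin 2, was 3.42, 9.22 and 3.54 FPKM and also fell in BetP-Gel@Ran against CNV (-1.15 ± 0.18, adjusted p = 0.00804). Thbs4 rose slightly there, by 0.41 ± 0.10 (adjusted p = 0.0277), and lost the call without CNV 1 (0.0923), CNV 2 (0.104), or any BetP-Gel@Ran library (0.0511 to 0.0925), with no filter (0.0641) and in a fit of only 2 groups (0.0544).

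Among the other integrin subunits, 6 of 13 rose and 1 fell in CNV against untreated, and 0 rose and 2 fell in BetP-Gel@Ran against CNV. Itgb2, the beta chain of leukocyte integrins, was 9.59-fold higher in CNV than in untreated in mean FPKM (2.43 ± 0.17, adjusted p = 1.40e-05 by limma) and 2.63-fold lower in BetP-Gel@Ran than in CNV (-1.20 ± 0.17, adjusted p = 0.00510). Itga4 and Itgam, alpha chains found on leukocytes, had untreated means of 0.485 and 4.62 FPKM, CNV means of 2.30 and 11.0 FPKM and BetP-Gel@Ran means of 2.55 and 12.4 FPKM. Against untreated both rose in CNV (1.15 ± 0.09 and 1.12 ± 0.15, adjusted p = 2.58e-05 and 3.60e-04) and in BetP-Gel@Ran (1.26 ± 0.09 and 1.28 ± 0.15, adjusted p = 3.47e-05 and 3.92e-04). Between BetP-Gel@Ran and CNV their differences were 0.11 ± 0.09 and 0.16 ± 0.15 (adjusted p = 0.455 and 0.486). Itga3, a laminin receptor chain, rose from 3.41 to 9.05 FPKM in CNV (1.15 ± 0.22, adjusted p = 0.00268).

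Of the other receptors and hyaluronan partners, 12 of 21 rose and 3 fell in CNV against untreated, and 1 rose and 8 fell in BetP-Gel@Ran against CNV. Srgn, a ligand of CD44, rose from 4.83 to 38.0 FPKM (2.69 ± 0.21, adjusted p = 2.23e-05 by limma) and was 8.39 FPKM in BetP-Gel@Ran (-2.01 ± 0.21 against CNV, adjusted p = 0.00134). Has2, which makes hyaluronan, rose from 0.415 to 4.5 FPKM (1.96 ± 0.14, adjusted p = 1.77e-05) and was 2.02 FPKM in BetP-Gel@Ran (-0.87 ± 0.14, adjusted p = 0.00974, or 0.0506 without CNV 1). Msn, moesin, which ties CD44 to actin, was 9.09, 30.1 and 14.4 FPKM, with differences of 1.59 ± 0.17 (adjusted p = 1.30e-04) and, against CNV, -0.97 ± 0.17 (adjusted p = 0.0117, or 0.0566 without CNV 1). Stab1, a scavenger receptor of macrophages, rose from 0.966 to 4.87 FPKM (1.55 ± 0.16, adjusted p = 8.47e-05).

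Adaptors inside the cell were mixed, with 7 of 25 higher and 5 lower in CNV against untreated, and 5 higher and 4 lower in BetP-Gel@Ran against CNV. Flna, the actin cross-linker filamin A, was 12.8, 28.8 and 15.3 FPKM and rose in CNV (1.08 ± 0.17, adjusted p = 0.00102 by limma). It fell in BetP-Gel@Ran against CNV (-0.83 ± 0.17, adjusted p = 0.0191), a call lost without CNV 1 (0.0742), CNV 2 (0.0748), BetP-Gel@Ran 2 (0.0669) or BetP-Gel@Ran 3 (0.0570). Pxn, paxillin, rose in CNV by 0.57 ± 0.10 (adjusted p = 0.00148) and Parvg, a parvin of blood cells, by 1.19 ± 0.21 (adjusted p = 0.00177), while Lims2, a partner of integrin-linked kinase, fell by 0.97 (adjusted p = 0.00146). Parvg reached 1 FPKM in 5 libraries, the 3 of CNV and BetP-Gel@Ran 1 and 3, and so passed the filter only through CNV. Parva and Fermt3, a parvin and a kindlin, had means of 13.5 and 19.9 FPKM in untreated, 10.7 and 15.1 FPKM in CNV and 13.6 and 20.6 FPKM in BetP-Gel@Ran. Their rises in BetP-Gel@Ran against CNV were 0.32 ± 0.06 and 0.43 ± 0.09 (adjusted p = 0.0137 and 0.0191 by limma). Both calls were lost without CNV 1 (0.0604 and 0.0647) or CNV 2 (0.0605 and 0.0554), Parva also without BetP-Gel@Ran 2 (0.0532) and Fermt3 without BetP-Gel@Ran 3 (0.0661).

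Proteases, inhibitors and cross-linkers of these matrix proteins had 13 of 20 genes higher and 1 lower in CNV against untreated, and 1 higher and 10 lower in BetP-Gel@Ran against CNV. Plaur, the urokinase receptor, rose from 0.551 to 6.71 FPKM (2.24 ± 0.25, adjusted p = 1.63e-04 by limma). Plat, tissue plasminogen activator, was 3.12, 10.2 and 5.36 FPKM, with differences of 1.44 ± 0.08 (adjusted p = 6.49e-06) and -0.81 ± 0.08 (adjusted p = 9.78e-04). Mmp12, the elastase of macrophages, was 0.107, 3.70 and 0.544 FPKM, rose in CNV by 2.08 ± 0.14 (adjusted p = 1.22e-05) and fell in BetP-Gel@Ran against CNV (-1.62 ± 0.14, adjusted p = 6.90e-04). Mmp12 reached 1 FPKM only in the 3 CNV libraries and so was tested only because it was high there. Plaur reached it in 5 libraries, those of CNV and BetP-Gel@Ran 1 and 3, and so it too passed the filter only through CNV.

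**Figure D4:**
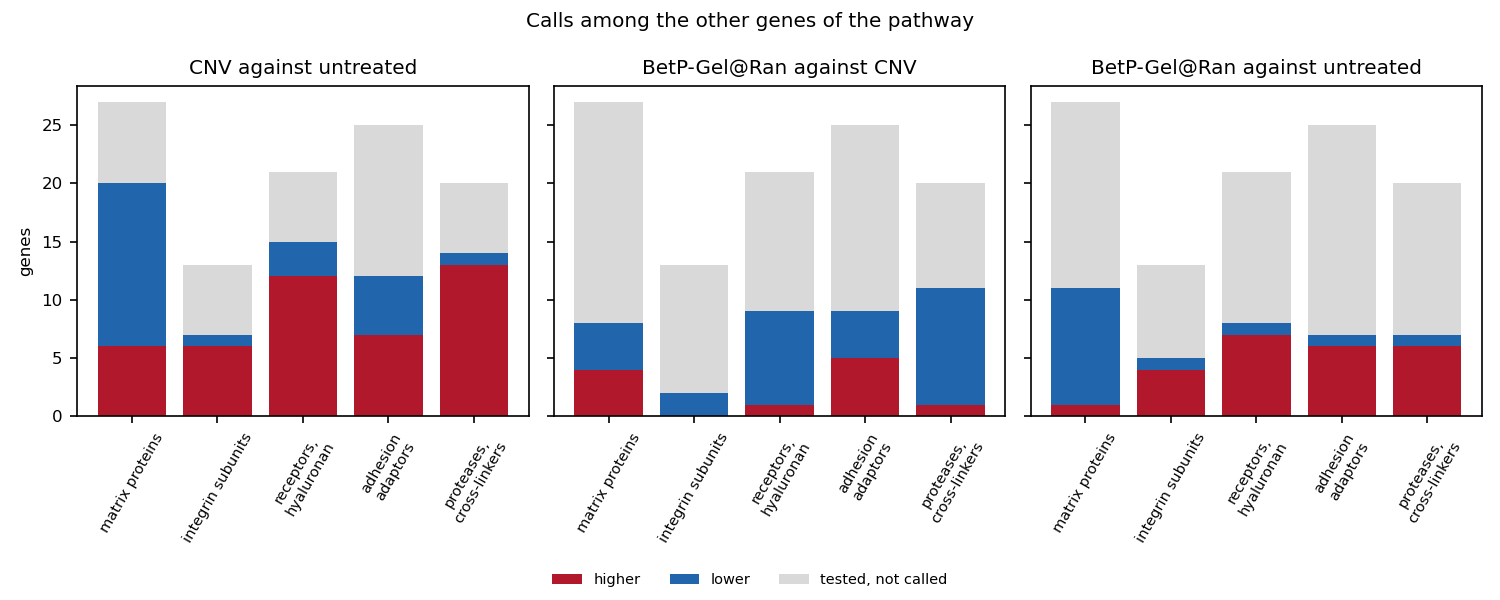
Number of genes in each of 5 function lists that were higher, lower or not called in each comparison, as stacked bars from 0. Matrix proteins had 14 lower and 6 higher in CNV against untreated, while proteases and cross-linkers had 1 lower and 13 higher.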

How the data were processed

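Gene expression in 9 mouse libraries was deposited by the authors as 1 table of FPKM (fragments scaled to the length of the gene and to the mapped reads of the library) for 54532 genes, beside each gene's length in bases. Genes were counted with HTSeq 0.6.0 on mm10, per the submitters' processing notes, and for the aligner the sources used here give no name. Libraries were made from poly-A RNA with a NEBNext Ultra kit, per the labels' protocols. It does not mark the strand. Genes that overlap a member held at most 8 recovered reads in any library. Reads lying on both genes may have been left uncounted, so these low counts cannot exclude an effect of overlap.

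Tests covered the 14086 genes that reached 1 FPKM in 3 or more libraries. Their log2(FPKM + 1) values went into limma 3.58.1 (R 4.3.3), as a model of group means over the 9 libraries without covariates, with its trend and robust options (statmod 1.5.0). Two-sided p-values were adjusted by Benjamini-Hochberg over all tested genes within each comparison, and 0.05 was the threshold. The fit was tested on simulated data first. Reads were recovered from FPKM and gene length: 100% of the values above 0 came out whole within 0.05, for 16990118 to 18753737 reads per library. Same-group pairs of libraries differed by a chi-square of 8.34 to 43.7 per gene, so none was taken as a repeat of another.

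The members and gene lists were chosen with earlier results of these data known. Members are the rows with the 10 gene names. The other genes come from 5 lists by function (128 genes) and 14 lists of cell markers (93 genes). From each function list up to 4 genes with the smallest adjusted p in CNV against untreated and up to 3 in BetP-Gel@Ran against CNV are named, and in any case the chains that pair with Itgav, Itgb3 or Itga5. For the 3 members whose group means ranged most, the 3 genes nearest in profile are named, passing over Gm and Rik symbols. One gene that this rule names is not reported here. Alternatives were a pseudocount of 0.1, a filter of 5 FPKM or none, quantile normalization, scaling to the FPKM sum, fits of 2 groups, the replicate number as a block, limma voom on recovered reads, and leaving out each library in turn. Promoter windows came from RefSeq (GRCm38.p6), and the RUNX and ETS motifs were added after the Spp1 window had been read.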

Additional observations from a re-analysis of the deposited data

How the results depend on the processing

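The 9 tested members kept the sign of their log2 differences in all 3 comparisons under the alternatives that tested them, and Itgb3 was given no difference under any. In CNV against untreated, the 7 members past the threshold stayed past it in each of them, except that Tnc and Itga5 were not tested with a filter of 5 FPKM. A filter of 5 FPKM, which tests fewer genes, gave 1735 genes (against 3166) and 29 pathway genes (44) higher in CNV against untreated, 3 members lower (5) in BetP-Gel@Ran against CNV, and 1337 genes higher (2265) in BetP-Gel@Ran against untreated. With no filter, 263 genes were higher (818) and 590 lower (1165) in BetP-Gel@Ran against CNV, 2 pathway genes were higher (11) and 15 lower (28), and 1 member (3) was higher in BetP-Gel@Ran against untreated. A fit of only 2 groups gave, for BetP-Gel@Ran against CNV, 537 genes higher and 652 lower, and 4 pathway genes higher and 18 lower. With FPKM divided by its sum, 1543 genes (2548) were lower in BetP-Gel@Ran against untreated. The cause of these shifts was not tested, apart from the number of genes tested. With 1 library left out in turn, counts in BetP-Gel@Ran against CNV ranged from 70 to 1439 genes higher, 183 to 1650 lower, 0 to 12 pathway genes higher, 9 to 34 lower, 0 to 1 member higher and 2 to 7 lower. In BetP-Gel@Ran against untreated they ranged from 1435 to 2463 genes and 1 to 4 members higher, and in CNV against untreated from 0 to 2 members lower. No sign was seen that the same replicate numbers pair the samples. Deviations from the group means correlated across genes at -0.15 to 0.084 between same-numbered libraries, and at -0.19 to 0.17 between differently numbered ones. With 3 libraries per group, such correlations cannot exclude a pairing. With the replicate block, 1 member (Thbs2) was lower in CNV against untreated, where 0 had been, and 523 genes (818) were higher in BetP-Gel@Ran against CNV. The low reads of Itgb3 (13 to 97 per library) limit what can be said of it.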
